A study of Homo sapiens with 4 samples.

Results

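The genes described here are 39 genes of the lysosome: 17 acid hydrolases, 2 sphingolipid activator proteins, 6 membrane proteins, 11 subunits or partners of the V-ATPase proton pump, and the 3 transcription factors TFEB, TFE3 and MITF. They were named by function, and a gene was taken where the array annotation gave a probe set exactly 1 symbol and that symbol was on the list. All 39 were found among 18377 genes tested, each through 1 probe set except NEU1, which had 3. The study measured total RNA on 4 Affymetrix arrays that probe whole transcripts. The cells were MOLM-14, a permanent human line of acute myeloid leukemia whose cells resemble monocytes. Control cells received the solvent DMSO (2 arrays), and treated cells received DZNep at 2 µM (2 arrays). Both groups were grown in serum-containing RPMI medium and exposed for 24 h, with no other agent or genetic change named. DZNep, 3-deazaneplanocin A, inhibits S-adenosylhomocysteine hydrolase and so disturbs methylation reactions. The labels speak of biological replicates and do not state that cultures were separate, so the spread behind each p-value is the one between these arrays and may be technical. MOLM-14 stands for 1 leukemia line, and nothing here extends to other cells.

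Lysosomes are acidic compartments in which hydrolases break down proteins, glycans, sphingolipids and other lipids. The V-ATPase pumps protons into them: its V1 sector in the cytosol hydrolyses ATP, and its V0 sector in the membrane carries the protons across. TFEB, TFE3 and MITF are basic helix-loop-helix transcription factors that bind E-box-like motifs, among them the CLEAR element found near many lysosomal genes. When nutrients are plentiful, the kinase complex mTORC1 at the lysosomal surface keeps TFEB and TFE3 in the cytosol through phosphorylation, so their messenger levels need not follow their activity.

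Values are log2 of the deposited intensity, and a difference on this scale is called a log2 fold change, DZNep minus DMSO. Intensities of different probe sets are ranked or summed only as signal. They are not read as relative messenger amounts, because probes differ in efficiency. Limma tests (two-sided) over all genes with Benjamini-Hochberg adjustment gave the calls, at an adjusted p of 0.05. The median log2 intensity of all probe sets lay between 6.99 and 7.07 on the 4 arrays. The change depended on brightness over all genes: the median log2 fold change was 0.04 for genes with a mean log2 intensity of 7 to 7.5 and −0.09 for genes at 10 to 10.5. Of the 39 lysosomal genes, 36 lay in the upper 50% of genes by mean intensity. Of the markers of monocytic leukemia, 11 of 12 were measured, among them the lysozyme gene LYZ at 12.24 ± 0.12 and the receptor kinase gene FLT3 at 11.87 ± 0.10 with DMSO (SD, n = 2 arrays each). These were the brightest of the 11, whose DMSO means went down to 6.96 for CD86. Markers of T cells (5 measured), B cells (4), erythroid cells (3) and epithelial cells (5) gave no call in either direction, and of 5 fibroblast markers DCN rose, by 0.36 (limma adjusted p = 0.0445). DCN was dim, with means of 5.28 with DMSO and 5.64 with DZNep, so its call does not show that it was expressed. The lack of a call speaks of change and does not show that a gene was silent. The DMSO means of the epithelial markers, for example, ran from 5.81 for CDH1 to 8.93 for KRT18.

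With DZNep, 5 of the 39 lysosomal genes rose and none fell. They were FUCA1 and ARSB among the hydrolases, the sphingolipid activator PSAP, the membrane protein CD63, and the V-ATPase subunit gene ATP6V0D1. The share that rose was 12.8%, against 3.62% of all 18377 genes, and 6.68% of all genes fell. Among the upper 50% of genes by intensity, where 36 of the 39 lie, 5.38% rose and 11.5% fell. The median log2 fold change of the 39 genes was 0.19, with quartiles of 0.07 and 0.28, against a median of 0.02 over all genes and −0.01 over the upper 50% by intensity. Both DZNep arrays lay above both DMSO arrays for 27 of the 39 genes, against 25.9% of all genes, and below them for 1 gene, MAN2B1, against 23.9% of all genes. The list was drawn up with earlier results of these data known, so its counts describe it and are no independent evidence.

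**Figure D1:**
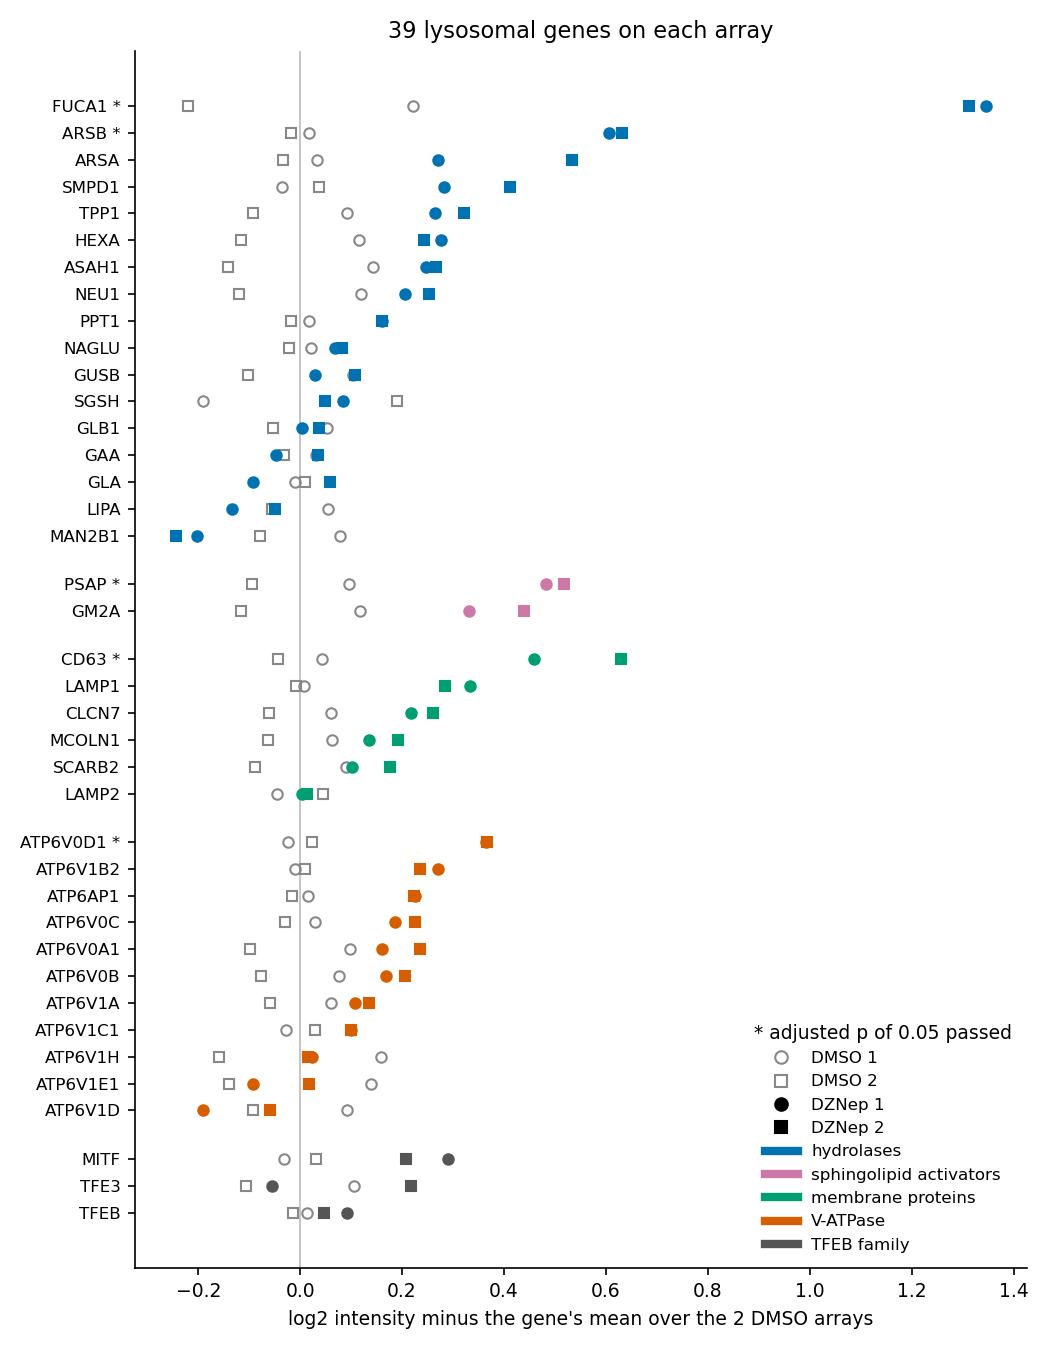
Each row is a gene and each point an array; the horizontal axis is the log2 intensity minus the gene's mean over the 2 DMSO arrays, open symbols are DMSO, filled symbols are DZNep, colours mark the 5 groups, and an asterisk marks a gene that passed the limma test. FUCA1 stands far to the right of all other genes, and in most rows both filled symbols lie to the right of both open ones, with a gap often no wider than the spread between the open symbols.

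The DMSO arrays differed from each other in a way that touches these genes. DMSO replicate 1 was above DMSO replicate 2 for 31 of the 39 genes, by a median of 0.11, while the corresponding median was −0.01 over all genes and 0.07 over the upper 50% by intensity. It was also above for 8702 of all 18377 genes and for 6071 of the 9189 genes in that upper 50%. The DZNep arrays differed less, with a median of −0.04 for replicate 1 minus replicate 2. Leaving out DMSO replicate 1 gave a median log2 fold change of 0.23 for the 39 genes, and leaving out DMSO replicate 2 gave 0.11. The part of this difference in the calls was not tested beyond leaving out single arrays.

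The count of 5 also moved with the processing. It was 8 with cyclic loess and 10 with quantile normalization, 10 with an intensity trend in the variance, 4 with median centring, and 2 without DZNep replicate 2 (FUCA1 and ARSB). In 18 alternatives, 13 of the 39 genes were called higher at least once, and none was called lower in any of them.

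**Figure D2:**
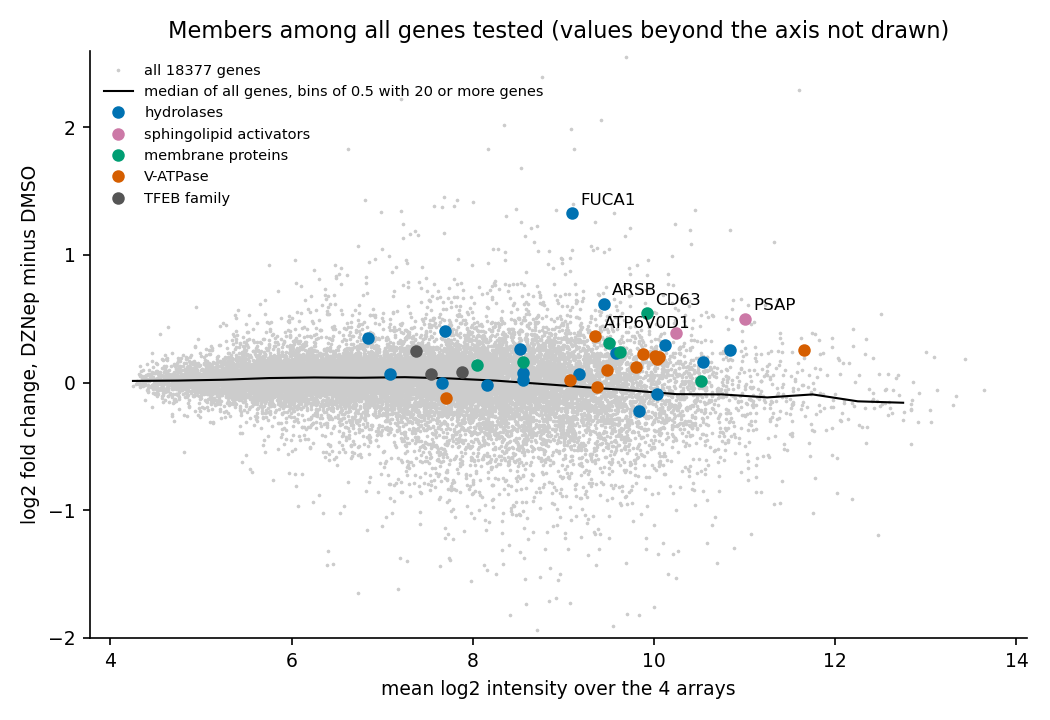
The horizontal axis is the mean log2 intensity over the 4 arrays and the vertical axis the log2 fold change, DZNep minus DMSO. Grey points are the 18377 genes, except those with values beyond the vertical axis, which are not drawn. The black line is the median of all genes in bins of 0.5, without bins of few genes, and coloured points are the 39 lysosomal genes. The line sinks from 0.04 at intensities of 7 to 7.5 to −0.09 at 10 to 10.5, and most coloured points lie above it.

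Promoter sequence was available for 28 of the 39 genes, as 44 windows of 300 bases, from 250 bases before to 50 bases after an annotated start (RefSeq, GRCh38.p14). No window was at hand for ARSA, ASAH1, ATP6V1A, ATP6V1B2, ATP6V1C1, ATP6V1H, HEXA, LAMP2, NAGLU, PSAP and SGSH. The E-box CACGTG, which reads the same on both strands, stood in 9 of the 44 windows (20.5%), against 7.26% of all 35116 windows. Its extension TCACGTGA, the centre of the CLEAR element and also a palindrome, contains the E-box and stood in 4 windows (9.09%), against 0.980% of all windows. The M-box TCATGTGA, a motif bound by MITF, was searched on both strands (TCACATGA on the other) and stood in 4 windows (9.09%), against 351 of all 35116 windows.

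The windows below are shown because they cover the 4 called genes with a window and 3 genes with the CLEAR centre that did not pass the test. Capitals mark E-boxes and, in CD63, the M-box; each runs 5′ to 3′ on the strand of the gene. They lie at chr1:23868241-23868540, minus strand (FUCA1), chr5:78985909-78986208, minus strand (ARSB), chr12:55728960-55729259, minus strand (CD63), chr16:67481108-67481407, minus strand (ATP6V0D1), chr13:113296989-113297288, plus strand (LAMP1), chr19:7522524-7522673, plus strand (MCOLN1) and chr17:80101481-80101630, plus strand (GAA). For MCOLN1 and GAA only the last 100 bases before the start and 50 after it are given. ARSB has 2 windows and CD63 has 8, of which the one holding an E-box is shown.
FUCA1: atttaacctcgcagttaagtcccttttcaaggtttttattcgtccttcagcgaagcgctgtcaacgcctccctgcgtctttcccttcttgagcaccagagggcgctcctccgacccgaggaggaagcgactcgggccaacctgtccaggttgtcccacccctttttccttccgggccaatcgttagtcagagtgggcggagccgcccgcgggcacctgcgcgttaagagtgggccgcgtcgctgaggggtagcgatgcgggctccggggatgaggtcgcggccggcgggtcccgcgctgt
ARSB: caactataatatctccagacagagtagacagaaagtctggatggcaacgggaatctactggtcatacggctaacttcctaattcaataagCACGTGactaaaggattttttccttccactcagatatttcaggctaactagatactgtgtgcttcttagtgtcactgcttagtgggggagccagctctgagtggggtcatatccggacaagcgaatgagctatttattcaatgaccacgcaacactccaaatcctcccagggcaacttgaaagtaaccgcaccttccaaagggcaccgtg
CD63: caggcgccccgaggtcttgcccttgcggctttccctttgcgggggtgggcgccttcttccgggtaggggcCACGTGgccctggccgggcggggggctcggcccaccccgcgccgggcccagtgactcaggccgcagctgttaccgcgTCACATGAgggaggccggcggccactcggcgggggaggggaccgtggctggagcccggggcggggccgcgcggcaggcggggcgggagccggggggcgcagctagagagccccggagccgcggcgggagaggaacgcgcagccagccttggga
ATP6V0D1: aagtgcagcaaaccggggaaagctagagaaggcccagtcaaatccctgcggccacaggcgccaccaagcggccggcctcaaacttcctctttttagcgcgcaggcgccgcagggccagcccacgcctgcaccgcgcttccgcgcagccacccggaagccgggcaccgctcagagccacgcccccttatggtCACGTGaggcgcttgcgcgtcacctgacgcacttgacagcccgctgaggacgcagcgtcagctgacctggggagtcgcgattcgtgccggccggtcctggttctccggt
LAMP1: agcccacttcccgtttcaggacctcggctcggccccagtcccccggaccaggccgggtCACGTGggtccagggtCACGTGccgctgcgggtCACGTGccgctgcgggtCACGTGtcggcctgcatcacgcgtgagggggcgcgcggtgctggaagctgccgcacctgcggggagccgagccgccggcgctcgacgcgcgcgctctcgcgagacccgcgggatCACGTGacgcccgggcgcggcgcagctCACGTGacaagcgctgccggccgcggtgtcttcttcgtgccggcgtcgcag
MCOLN1: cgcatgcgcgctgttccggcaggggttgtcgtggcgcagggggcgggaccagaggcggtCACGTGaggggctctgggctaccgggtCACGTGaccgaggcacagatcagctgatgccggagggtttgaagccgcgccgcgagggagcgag
GAA: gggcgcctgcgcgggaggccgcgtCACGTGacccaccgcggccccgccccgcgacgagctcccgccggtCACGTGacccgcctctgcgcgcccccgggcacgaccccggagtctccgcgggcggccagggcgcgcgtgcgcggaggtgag

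FUCA1, the gene with the largest rise, held none of these motifs in its window. ARSB held 1 E-box, beginning 160 bases before the start, and CD63 held 1 at 180 bases and an M-box at 103 bases before it. ATP6V0D1 held 1 E-box within the CLEAR centre, which begins 60 bases before the start. LAMP1, whose product coats the inner face of the lysosomal membrane, held 6 E-boxes, 2 of them within the CLEAR centre. MCOLN1 and GAA held 2 each, all within the CLEAR centre. Among members with a window, the 9 with an E-box had log2 fold changes of −0.01 (GAA) to 0.62 (ARSB), with a median of 0.24, and 3 of them rose. The 19 without one had values of −0.22 (MAN2B1) to 1.33 (FUCA1), with a median of 0.14, and 1 rose. Over all tested genes with a window, 4.12% of the 1555 with an E-box rose, with a median log2 fold change of 0.01, against 3.56% and 0.02 of those without. These matches are letters in a window and do not show binding.

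**Figure D3:**
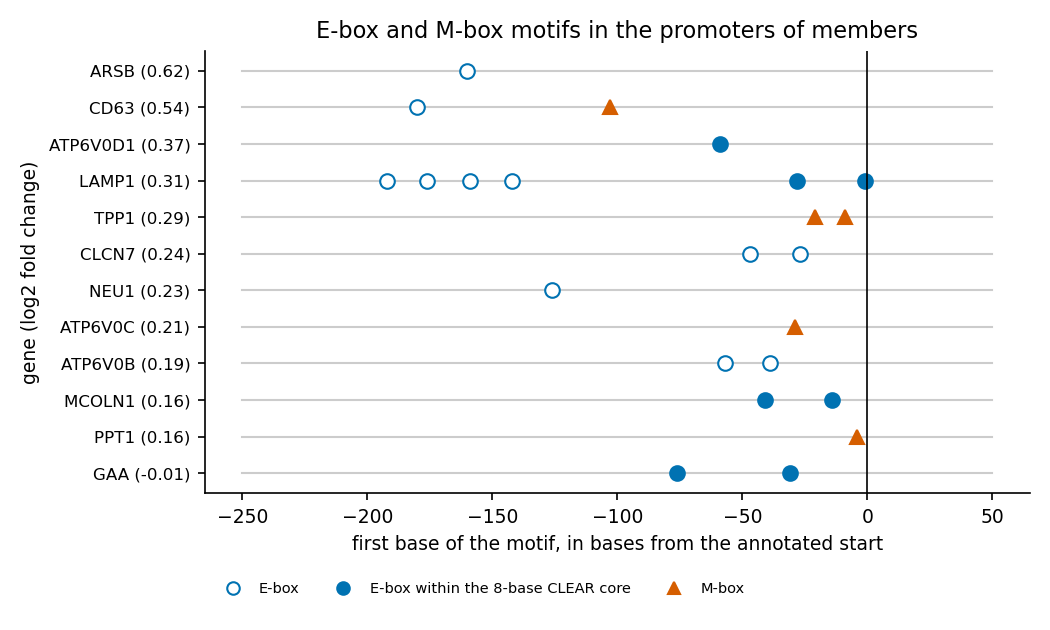
Each line is the window of a gene, from 250 bases before to 50 bases after the start, with the gene's log2 fold change in brackets; circles are E-boxes (filled where they lie within the CLEAR centre), triangles are M-boxes, and the horizontal axis gives the first base of the motif. LAMP1 holds 6 circles, and GAA at −0.01 and MCOLN1 at 0.16 hold 2 filled circles each.

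Among the 17 hydrolases, 2 rose, none fell and 15 did not pass the test, with a median log2 fold change of 0.16. FUCA1 encodes tissue alpha-L-fucosidase, which removes fucose from glycoproteins and glycolipids and is deficient in fucosidosis. Its log2 intensity was 8.65 and 8.21 with DMSO and 9.77 and 9.74 with DZNep. The groups did not overlap: the gap between them was 1.09, against 0.44 between the DMSO arrays. FUCA1 was 2.51-fold higher with DZNep, from 8.43 ± 0.31 to 9.76 ± 0.02 (SD, n = 2 arrays each; log2 fold change 1.33 with SE 0.14 and adjusted p = 0.000533 by limma). Its change was between 1.11 and 1.55 in the 18 alternatives, and it passed the test in all of them.

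ARSB encodes arylsulfatase B, which removes sulfate from dermatan sulfate and chondroitin sulfate. It read 9.15 and 9.12 with DMSO and 9.74 and 9.77 with DZNep, so that the replicates of each group nearly coincided and the groups lay far apart. It was 1.54-fold higher, from 9.14 ± 0.02 to 9.76 ± 0.02 (SD, n = 2 arrays each; log2 fold change 0.62 with SE 0.09 and adjusted p = 0.00319 by limma). ARSB passed in 17 alternatives and not in the test against a 1.5-fold change.

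Both other sulfatases on the list showed smaller differences. ARSA, arylsulfatase A, which splits sulfatide, read 7.53 and 7.46 with DMSO and 7.76 and 8.03 with DZNep. Its groups did not overlap, and the difference of 0.40 (SE 0.11) missed the threshold narrowly (limma adjusted p = 0.0526), passing in 8 alternatives. SGSH, the sulfamidase of heparan sulfate, read 6.86 and 7.24 with DMSO and 7.14 and 7.10 with DZNep, so the DMSO arrays enclosed the DZNep arrays. Its log2 fold change of 0.07 turned to −0.12 without DMSO replicate 1.

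Enzymes of sphingolipid breakdown formed the next group. SMPD1, acid sphingomyelinase, read 6.64 and 6.71 with DMSO and 6.96 and 7.09 with DZNep, without overlap, at a log2 fold change of 0.35 (SE 0.10) that missed the threshold (limma adjusted p = 0.0564). ASAH1, acid ceramidase, read 10.86 and 10.57 with DMSO and 10.96 and 10.98 with DZNep. For ASAH1 the difference of 0.26 was smaller than the 0.29 between the DMSO arrays, and it did not pass (limma adjusted p = 0.225). HEXA, the alpha subunit of beta-hexosaminidase, which acts on the ganglioside GM2, had a log2 fold change of 0.26. NEU1, the lysosomal sialidase, had 0.23, and its 3 probe sets had 0.20, 0.20 and 0.23. GLA, alpha-galactosidase A, the enzyme deficient in Fabry disease, and GLB1, beta-galactosidase, had −0.02 and 0.02, and both signs turned in some alternatives.

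Of the 2 hydrolases that act on proteins or their lipid anchors, TPP1, a tripeptidyl peptidase, differed by 0.29 on the log2 scale (limma adjusted p = 0.117), and it passed in 4 alternatives. PPT1, which removes palmitate from proteins, had 0.16. Both genes read higher on both DZNep arrays than on either DMSO array. The glycan-degrading enzymes NAGLU (0.08), GUSB (0.07, and −0.04 without DMSO replicate 2) and GAA (−0.01), which releases glucose from glycogen, differed by less than their standard errors. LIPA, the acid lipase that frees cholesterol from its esters, had −0.09 with overlapping groups. MAN2B1, the acid alpha-mannosidase, was the 1 member below DMSO on both DZNep arrays: it read 10.02 and 9.86 with DMSO and 9.74 and 9.70 with DZNep, a difference of −0.22 that did not pass (limma adjusted p = 0.228).

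**Figure D4:**
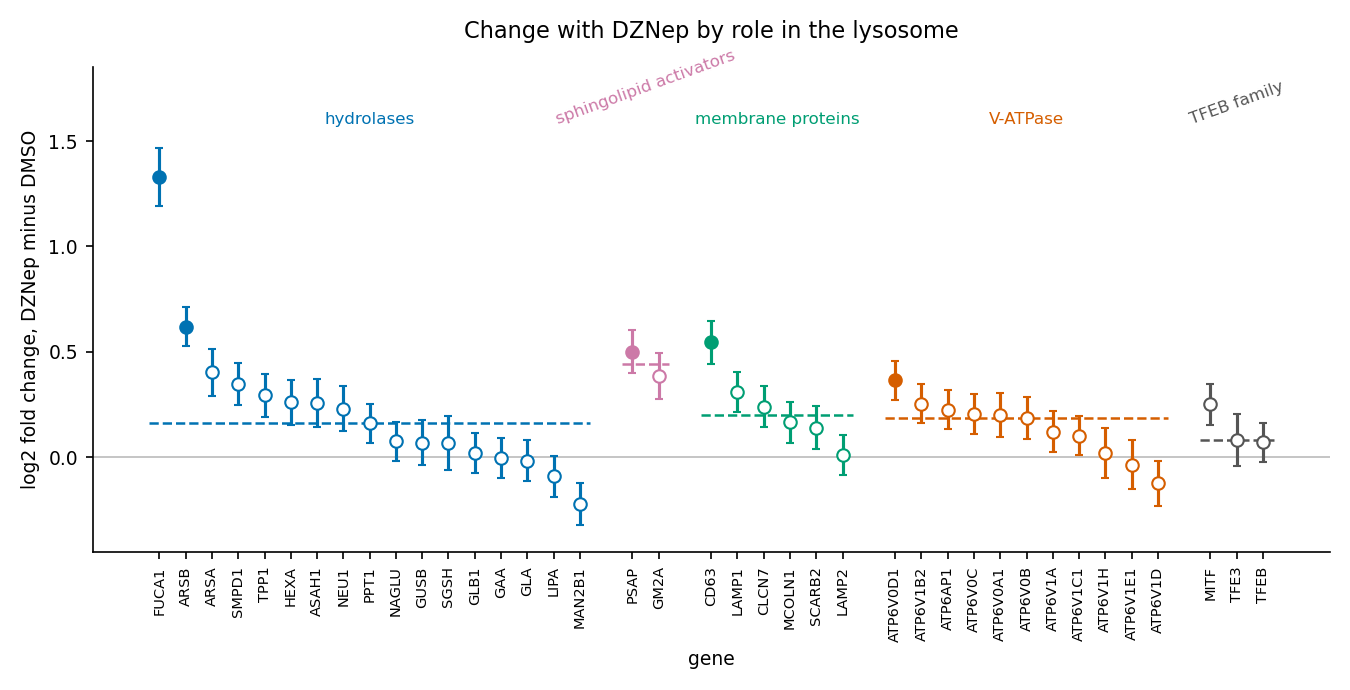
The vertical axis is the log2 fold change, DZNep minus DMSO, for each of the 39 genes, with the standard error from limma as bars; filled points passed an adjusted p of 0.05, and dashed lines are the medians of the 5 groups. The medians run from 0.08 for the TFEB family to 0.44 for the 2 sphingolipid activators, and FUCA1 at 1.33 is the only gene above 1.

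Sphingolipid activators are small proteins that lift lipids out of membranes for the hydrolases. PSAP encodes prosaposin, the precursor of the saposins, and read 10.85 and 10.66 with DMSO and 11.23 and 11.27 with DZNep. It was 1.41-fold higher, from 10.75 ± 0.13 to 11.25 ± 0.03 (SD, n = 2 arrays each; log2 fold change 0.50 with SE 0.10 and adjusted p = 0.0148 by limma). Without DZNep replicate 2 the value was 0.48 and did not pass (limma adjusted p = 0.0674). GM2A, the GM2 activator that presents the ganglioside to beta-hexosaminidase, read 10.17 and 9.94 with DMSO and 10.39 and 10.49 with DZNep. Its groups did not overlap, and the difference of 0.39 (SE 0.11) missed the threshold (limma adjusted p = 0.0578), passing in 9 alternatives. The median of both was 0.44, from 2 genes only.

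Of the 6 membrane proteins, 1 rose and 5 did not pass, with a median of 0.20. All 6 had positive values, against 55.4% of all genes and 49.1% of the upper 50% by intensity. CD63 encodes a tetraspanin of late endosomes, lysosomes and exosomes. It read 9.70 and 9.61 with DMSO and 10.11 and 10.28 with DZNep, and the gap between the groups of 0.42 was wider than the difference within either. It was 1.46-fold higher, from 9.65 ± 0.06 to 10.20 ± 0.12 (SD, n = 2 arrays each; log2 fold change 0.54 with SE 0.10 and adjusted p = 0.0101 by limma). The call ended without DZNep replicate 2, at 0.46 (limma adjusted p = 0.0909).

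LAMP1 and LAMP2 are the major glycoproteins of the lysosomal membrane, and the difference between their changes was not tested. LAMP1 read 9.36 and 9.34 with DMSO and 9.68 and 9.63 with DZNep, without overlap, at a log2 fold change of 0.31 (SE 0.09, limma adjusted p = 0.0701). LAMP2, which also serves chaperone-mediated autophagy, read 10.47 and 10.56 with DMSO and 10.52 and 10.53 with DZNep, and its value of 0.01 turned negative in 2 alternatives. CLCN7, the lysosomal chloride-proton exchanger, had 0.24 (limma adjusted p = 0.181) and passed only with quantile normalization. MCOLN1, the calcium-releasing channel TRPML1, had 0.16, and SCARB2, the receptor LIMP-2 that carries glucocerebrosidase to the lysosome, had 0.14.

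Of the 11 V-ATPase genes, 1 rose and 10 did not pass, with a median of 0.19. ATP6V0D1 encodes the d subunit that links the rotor of V0 to V1. It read 9.15 and 9.20 with DMSO and 9.54 on both DZNep arrays. It was 1.29-fold higher, from 9.17 ± 0.03 to 9.54 ± 0.001 (SD, n = 2 arrays each; log2 fold change 0.37 with SE 0.09 and adjusted p = 0.0368 by limma). This was the least stable of the 5 calls, passing in 11 of 18 alternatives: it ended with median centring (limma adjusted p = 0.0626), with 16 subtracted from every intensity (0.0819), with a replicate block (0.0501), against a 1.5-fold change, without DMSO replicate 1 (0.0702), and without DZNep replicate 1 (0.254) or 2 (0.270).

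The other genes of the membrane sector had near-equal values. ATP6V0A1, of the a subunit through which protons pass, had 0.20, ATP6V0B and ATP6V0C, of the proteolipid ring, had 0.19 and 0.21, and ATP6AP1, an accessory protein for assembly, had 0.22. With ATP6V0D1 these 5 genes had a median of 0.21, and for all 5 both DZNep arrays lay above both DMSO arrays. Of the 6 genes of the V1 sector, 3 showed this separation, and the median of the 6 was 0.06. Over all genes, 25.9% showed the same separation. Among the 9189 brightest genes, where all 11 V-ATPase genes lie, 2681 did. ATP6V1B2, an ATP-hydrolysing-sector subunit, read 11.52 and 11.54 with DMSO and 11.80 and 11.76 with DZNep, at 0.25 (SE 0.09, limma adjusted p = 0.135), and passed only with an intensity trend. ATP6V1A, the catalytic subunit, had 0.12, and ATP6V1C1 had 0.10. ATP6V1H, a regulatory subunit, had 0.02, ATP6V1E1, of the peripheral stalk, had −0.04, and ATP6V1D, of the central shaft, had −0.12. The first of these turned to −0.14 without DMSO replicate 2, and ATP6V1E1 to 0.10 without DMSO replicate 1. The difference between the sectors was not tested.

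None of the 3 genes of the TFEB family passed the test, with limma adjusted p of 0.151 to 0.785 and a median of 0.08. TFEB read 7.52 and 7.49 with DMSO and 7.59 and 7.55 with DZNep, a difference of 0.07 with a standard error of 0.09. TFE3 read 7.95 and 7.74 with DMSO and 7.79 and 8.06 with DZNep, so its groups overlapped, and its value of 0.08 turned negative without DMSO replicate 2 or DZNep replicate 2. MITF, better known as the regulator of melanocytes and osteoclasts, read 7.22 and 7.28 with DMSO and 7.54 and 7.46 with DZNep, a difference of 0.25 (SE 0.10, limma adjusted p = 0.151).

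Other genes of the pathway were drawn up as 5 lists with 82 entries, of which 71 were measured. Of these, 9 rose (12.7%) and 2 fell (2.82%), against 3.62% and 6.68% of all genes. The median log2 fold change was 0.07, and 46 values were positive (64.8%), against 55.4% of all genes. Among the upper 50% of genes by intensity, where 65 of the 71 lie, 5.38% rose, 11.5% fell and 49.1% had positive values. Among 13 other genes, mainly of lysosomal enzymes, 3 rose and none fell. They were PLBD2, a phospholipase B-like protein, at 0.44, DNASE2, which digests engulfed DNA, at 0.42, and PLA2G15, a lysosomal phospholipase, at 0.38. Their limma adjusted p lay between 0.0243 and 0.0309. Among 18 other membrane proteins, 2 rose and 1 fell, and the median was −0.07. LAPTM4A, a late endosomal membrane protein, rose 1.42-fold (log2 fold change 0.51 with SE 0.09 and adjusted p = 0.00953 by limma), the channel gene TPCN1 rose by 0.42, and the lipid transporter gene ABCA2 fell, with a value of −0.45 (limma adjusted p = 0.0343). Among 11 other V-ATPase genes 1 rose, ATP6V0E1 of the V0 sector, at 0.52 (limma adjusted p = 0.00833), and none fell. The other V0 genes on that list, named here after their values were seen, did not pass: TCIRG1 had −0.21 with both DZNep arrays below both DMSO arrays, ATP6V0A2 had −0.15, ATP6V0E2 had 0.07 and ATP6V0D2 had 0.10. The V0 genes thus did not all lie above DMSO once these were counted. ATP6AP2, an accessory gene like ATP6AP1 and also named after its value was seen, had 0.26 (limma adjusted p = 0.136). Both its DZNep arrays lay above both DMSO arrays.

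The remaining lists concern delivery to the lysosome and the control of TFEB. Hydrolases reach the lysosome by a mannose 6-phosphate tag, which the transferase encoded by GNPTAB begins. GNPTAB was the 1 of 11 sorting genes that rose, by 0.49 (limma adjusted p = 0.0111), and none fell. Of 18 genes that act on the TFEB family or, as TFEC, belong to it, 2 rose and 1 fell. They include Ragulator and Rag parts of the mTORC1 platform. LAMTOR2, a Ragulator subunit, rose by 0.48 and RRAGB, a Rag GTPase, by 0.44, while PPP3CB, a catalytic subunit of calcineurin, fell, with a value of −0.41 (limma adjusted p of 0.0212, 0.0299 and 0.0294). Each of the 11 calls on the 5 lists ended when at least 1 single array was left out, with the highest limma adjusted p between 0.0540 (ATP6V0E1, without DZNep replicate 1) and 0.368 (ABCA2, without DZNep replicate 1).

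**Figure D5:**
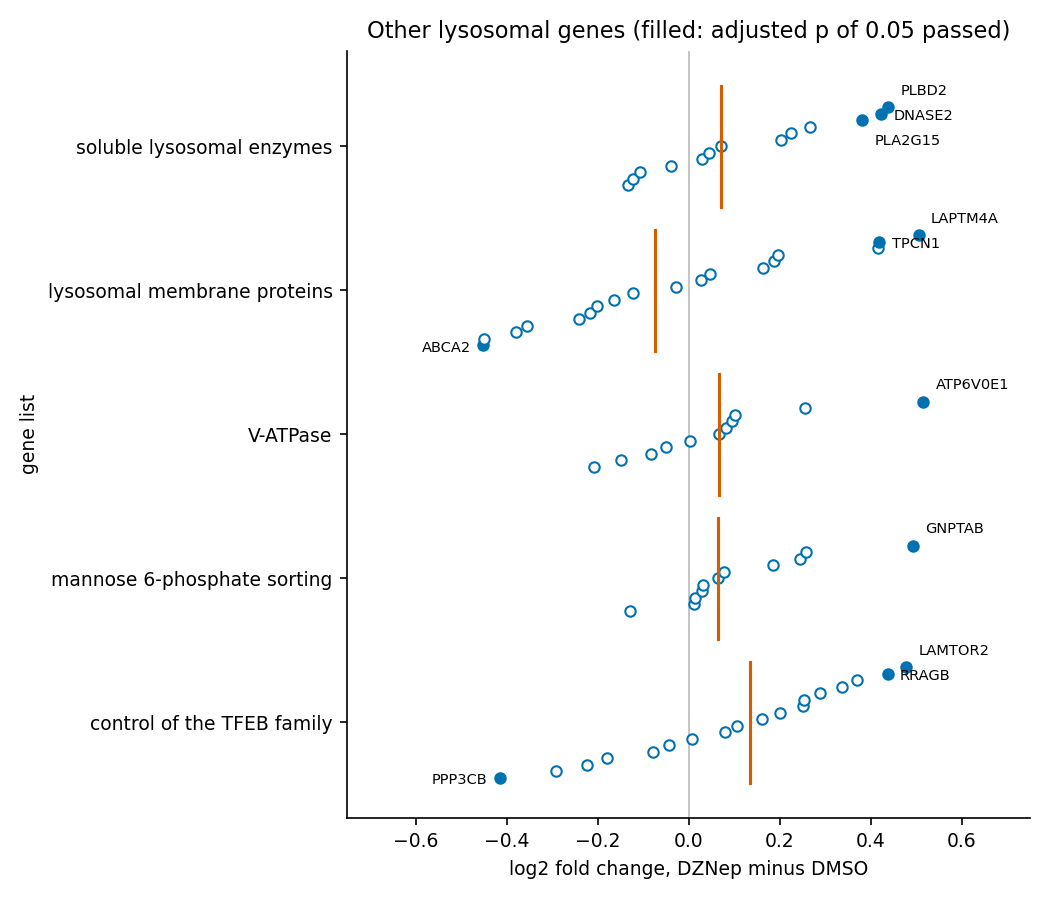
The horizontal axis is the log2 fold change, DZNep minus DMSO, of the 71 other lysosomal genes in their 5 lists; points are genes, filled where the limma test was passed, with a small vertical offset for legibility, and vertical bars are list medians. The medians lie between −0.07 for membrane proteins and 0.14 for the control of the TFEB family, and filled points stand mainly at the right edge.

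Of 10 measured markers of macrophage maturation, 3 rose, none fell and 7 did not pass: MS4A6A rose 5.86-fold, MPEG1 3.56-fold and the scavenger receptor gene CD36 2.04-fold. Of the 7, the log2 fold changes of CD14, APOE and CD163 were 0.33, 0.29 and 0.18, and those of MSR1, GPNMB, MRC1 and MERTK were −0.01, −0.03, −0.06 and −0.14. Several of the 7 were dim. The DMSO means were 5.02 for MSR1, 5.43 for MRC1, 6.04 for CD163 and 6.07 for MERTK. Those of CD14, GPNMB and APOE were 6.71, 6.76 and 8.12. Whether the dim probe sets read more than background was not tested, so their values do not show unchanged expression. The summed intensity of the 10 markers, a sum in which bright probe sets weigh most, was 1795 and 1867 with DMSO and 4877 and 4778 with DZNep. For the 7 markers that did not pass, it was 673.7 and 734.2 with DMSO and 783.2 and 793.1 with DZNep. Of the 11 monocytic leukemia markers, CD86 rose by 1.45, LYZ by 0.53 and CSF1R, the receptor for macrophage colony-stimulating factor, by 0.47, while FLT3 fell, with a value of −0.94 (limma adjusted p of 8.38e-05 to 0.0128 for the 4). The other 7 did not pass. Among them CEBPA, CD4, CSF3R and SPI1 had 0.36, 0.31, 0.09 and 0.06, and MPO, ITGAM and ITGAX had −0.15, −0.22 and −0.22. In RNA of whole cultures, a change in each cell and a change in the share of cells in one state cannot be told apart, and the part of the 3 called macrophage markers in the lysosomal values was not tested.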

How the data were processed

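Total RNA from 4 samples of MOLM-14 cells was labelled with biotin by an Affymetrix whole-transcript protocol, per the labels' protocols. The deposited table holds 1 linear intensity per probe set and array, which the authors computed by RMA, as the submitters' processing notes name it. Software, version and genome build are, for this step, not given in the sources used here. Each array's lowest intensity lay between 18.1 and 18.5. An added constant, which would shrink folds of dim genes, is unknown.

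Here the values were put on a log2 scale without a pseudocount and not normalized again. Of 28869 probe sets, 19310 have 1 symbol, 1752 several and 7807 none listed. Each gene was represented by its brightest probe set on average. The test was limma's (version 3.58.1, R 4.3.3; lmFit, then eBayes, with group as the only term, 2 residual and 7.18 prior degrees of freedom), with Benjamini-Hochberg adjustment over 18377 genes. With 2 arrays against 2, an exact permutation test of 1 gene cannot give a p under 0.333. The script was tested on simulated data. Alternatives were a replicate block, dim-gene filters, other normalizations and variance models, array weights, other probe set rules, a 1.5-fold test and leaving out each array.

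The members and gene lists were chosen with earlier results of these data known. All members are named; array values are given for called members, the largest changes and the brightest probe set of each group, and beside them for some members of similar function, chosen after their values were seen. From other lists up to 4 called genes are named, with the called marker genes. Further V0 genes, ATP6AP2, TFEC, CDH1, KRT18 and the uncalled macrophage and monocytic leukemia markers were added after their values were seen. Sequences come from RefSeq, and motifs were matched exactly.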

Additional observations from a re-analysis of the deposited data

How the results depend on the processing

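Over 18 alternatives, 26 of the 39 members were never called, 30 kept the sign of their log2 fold change, and no member was called lower. The members that rose (5) were 9 with a crossed replicate block, chosen after seeing the data because same-numbered arrays deviated with a correlation of −0.22. They were 8 with cyclic loess and without the dimmest 25% or 50% of genes, 10 with quantile normalization and with a plain or robust intensity trend, 1 against a 1.5-fold change, and 2 to 6 when single arrays were left out. The replicate block gave 6. The labels' numbers do not show pairing, and ATP6V0D1 did not pass with this block (limma adjusted p = 0.0501). Over all genes, 754 were higher with the replicate block, 739 of 13782 without the dimmest 25% and 793 of 9188 without the dimmest 50%, against 665 in the main test. Cyclic loess gave 749, quantile normalization 912 and either intensity trend 946. The count of all genes higher was 1034 with the crossed block, 37 against a 1.5-fold change, and 336 to 776 with single arrays left out. The count of all genes lower was 73 against a 1.5-fold change and 734 to 1662 with single arrays left out.

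Hydrolases that rose (2) were 4 with the crossed block, either trend, quantile normalization or without the dimmest 25%, and 1 against a 1.5-fold change. Sphingolipid activators (1) were 2 with the crossed or replicate block, loess, either trend, quantile normalization or either filter, 0 against a 1.5-fold change, and 0 to 2 with an array left out. Membrane proteins (1) were 2 with the crossed block, loess, either trend or without the dimmest 50%, 3 with quantile normalization, 0 against a 1.5-fold change, and 0 to 1 with an array left out. V-ATPase genes (1) were 2 with either trend, 0 with 16 subtracted, median centring, the replicate block or against a 1.5-fold change, and 0 to 1 with an array left out. With an array left out, median log2 fold changes were 0.11 to 0.23 for all members, 0.14 to 0.26 for membrane proteins, 0.11 to 0.24 for V-ATPase and 0.056 to 0.21 for the TFEB family. Quantile normalization gave 0.25 for membrane proteins and 0.26 for V-ATPase, and median centring gave 0.049 for the TFEB family. The median of all genes lay between −0.01 and 0.04 throughout; with cyclic loess and median centring, where it was near or below 0, the members' median was 0.21 and 0.15.

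Signs turned with median centring for GLB1 (−0.013), LAMP2 (−0.023) and ATP6V1H (−0.013), and with quantile normalization for ATP6V1E1 (0.015). With an array left out, ranges that crossed 0 were −0.048 to 0.035 for GAA, −0.092 to 0.058 for GLA, −0.033 to 0.073 for GLB1, −0.035 to 0.17 for GUSB, −0.12 to 0.26 for SGSH, −0.036 to 0.054 for LAMP2, −0.18 to 0.10 for ATP6V1E1, −0.14 to 0.18 for ATP6V1H and −0.055 to 0.22 for TFE3. The cause of these changes was not tested. A lone array was assumed to vary like the other group. MITF, SMPD1 and SGSH have no value without the dimmest 50%.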

Other observations

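Lysosomal membrane genes outside the 39 included several that read lower with DZNep, named here after their values were seen. SLC17A5, the sialic acid exporter of the lysosome, differed by −0.45 on the log2 scale, just short of a call (limma adjusted p = 0.0501). CD68, a lysosomal glycoprotein of macrophages, had −0.38 (limma adjusted p = 0.0826), while the macrophage genes MS4A6A and MPEG1 rose. Of the 18 genes on that list, both DZNep arrays lay below both DMSO arrays for 8 and above them for 6. Over all genes, this held for 23.9% below and 25.9% above. Among the 9189 brightest genes, where all 18 lie, it held for 3195 below and 2681 above.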
